A study of Mus musculus with 20 samples.

Results

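Pou4f1, known for a long time as Brn3a, is described here across the developing and adult mouse habenula and between its left and right sides. It was found by its symbol and is 1 gene of 38086 rows in the tables of developmental stages and of 36196 rows in the tables of left and right plates. The gene (ENSMUSG00000048349, protein coding) lies at chr14:104461676-104467999 on the minus strand of GRCm38 in GENCODE M21. Its coding transcript, Pou4f1-201, has 3 exons of 389, 1187 and 2869 bases, separated by introns of 739 and 1140 bases. The whole coding sequence lies in the first and second exons.

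Single cells of habenula were placed in 384-well plates and read by CEL-seq2, which counts transcripts near their 3′ ends by unique molecular identifiers (UMIs). The 15 developmental plates came from the Brn3a-tauLacZ line, with 2 plates each at embryonic day 11 (E11), E13, E15 and E18, postnatal day 4 (P4), P7 and in the adult, and 1 plate at E12. The other 5 plates came from C57BL/6 mice at E18: 2 of left habenula, 2 of right habenula and 1 of both sides, whose title gives another stage than its stage label. The line's name marks a tau-lacZ reporter at the Pou4f1 locus. The labels do not give how many alleles carried it, the sort gate, the age of the adults, the sex or the number of animals per plate. Nor do they say how much of Pou4f1 that allele keeps: where its transcripts lack the part that was counted, the Pou4f1 counts of the stage plates come only from the other allele. The plate was the replicate throughout, so p-values measure the spread between plates, and the levels of the reporter line and of C57BL/6 were not compared with each other.

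POU4 proteins bind DNA through a POU-specific domain and a homeodomain joined by a linker. Pou4f1 is switched on as neurons leave the cell cycle in the habenula, sensory ganglia, retina and parts of the midbrain and hindbrain. In the diencephalon it is a standard marker of habenular neurons, and mouse work ties it to their gene expression, axon growth and survival. Progenitors, glia and vessel cells are not known for it.

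After a minimum of 1000 UMIs and 500 genes per well and at most 20% mitochondrial counts, 3729 of 5756 wells on the stage plates and 1082 of 1920 on the left and right plates were kept as cells. Total counts in kept cells lay between 758697 (adult plate 1) and 7760372 (P7 plate 1), and the kept cells of a plate numbered 54 to 345. Plates of the same stage did not always hold the same cells. On E18 plate 1 the 10 neuron markers, all above 0 on every plate, summed to 3209 CPM (counts per 1e6 counts) and the 9 progenitor markers to 3739 CPM. On E18 plate 2 they summed to 7774 and 217 CPM, with 7 of the progenitor markers above 0. Ependymal and choroid plexus markers (7 genes, 6 of them above 0) summed to 3845 CPM on E13 plate 2 and to 14.2 CPM (4 above 0) on E13 plate 1. Oligodendrocyte markers (8 genes, all above 0 in the adult) reached 9749 and 2802 CPM on the adult plates and at most 438 CPM elsewhere.

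Pou4f1 was detected on all 20 plates. It gave 30300 UMIs on the stage plates, where 2933 of 3729 cells (78.7%) held at least 1, and 13914 UMIs on the left and right plates, where 727 of 1082 cells (67.2%) did. Its level is given in CPM, summed over a plate's kept cells, a measure in which fewer expressing cells and fewer transcripts per cell cannot be told apart.

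A pair of neighbouring genes went with Pou4f1 among cells, and both are long noncoding RNAs. D130079A08Rik (ENSMUSG00000115424) lies on the minus strand at chr14:104288431-104459336 and begins 2339 bases past the end of Pou4f1. D130009I18Rik (ENSMUSG00000115432) lies on the plus strand at chr14:104612791-104966783, 144791 bases away on the other side. Both were chosen for their difference between cells with and without Pou4f1 UMIs, described further on, and no role is stated for either here. The sequences before their RefSeq starts (build GRCm38.p6, strand of the gene, 5′ to 3′) are shown with that of Pou4f1. Capitals mark TATAA, the core of the TATA box, and ATTAAT, the end of the AT-rich site known for POU4 proteins.
Pou4f1, chr14:104468119-104468249, minus: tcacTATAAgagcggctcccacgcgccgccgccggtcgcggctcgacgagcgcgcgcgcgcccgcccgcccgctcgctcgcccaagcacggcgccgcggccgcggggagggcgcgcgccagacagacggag
D130079A08Rik, chr14:104459337-104459586, minus: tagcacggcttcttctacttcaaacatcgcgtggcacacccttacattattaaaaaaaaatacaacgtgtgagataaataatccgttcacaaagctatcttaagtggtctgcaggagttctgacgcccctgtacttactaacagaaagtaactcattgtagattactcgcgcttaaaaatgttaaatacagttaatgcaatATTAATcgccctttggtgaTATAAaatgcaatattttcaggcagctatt
D130009I18Rik, chr14:104638894-104639143, plus: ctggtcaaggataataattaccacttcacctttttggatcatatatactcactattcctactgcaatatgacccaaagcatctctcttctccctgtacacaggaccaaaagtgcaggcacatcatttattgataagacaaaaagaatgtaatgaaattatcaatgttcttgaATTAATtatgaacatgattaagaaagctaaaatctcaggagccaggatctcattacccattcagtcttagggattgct

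The window before Pou4f1 was 80.9% G and C over 131 bases, with 30 CG pairs, 1 TATAA and 0 ATTAAT. Those of D130079A08Rik and D130009I18Rik were 36.4% and 35.6% G and C over 250 bases. The first held 9 CG pairs, 1 TATAA and 1 ATTAAT. The second held 0 CG pairs, 0 TATAA and 1 ATTAAT, and the RefSeq start it precedes lies inside the longer GENCODE gene. Both strands were searched, and the letters of ATTAAT read the same on each. Among 32851 promoter windows of 250 bases 22.8% held TATAA and 4.39% held ATTAAT, and at 131 bases 13.3% and 2.65% did. The Pou4f1 window was cut to end where its longest RefSeq model starts. The windows of 131 bases are the part of each promoter window farthest from the start used. They thus lie farther from that start than the Pou4f1 window does from the start of its longest model. A match describes the letters only.

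Across stages, Pou4f1 stood highest at E11 and lowest in the adult, and E13 and E18 had plates far apart. The E11 plates 1 and 2 gave 838 and 788 CPM, the E12 plate 604 CPM, the E13 plates 456 and 204 CPM and the E15 plates 568 and 774 CPM. At E18 the plates gave 149 and 771 CPM. P4 gave 496 and 502 CPM, P7 410.0 and 439 CPM, and the adult 160 and 211 CPM. The E11 plates lay above those of every other stage. Both adult plates lay below all others except E18 plate 1, and adult plate 2 also lay above E13 plate 2. In order of group means the stages ran E11, E15, E12, P4, E18, P7, E13 and adult, and of neighbours in that order only E11 and E15, and E12 and P4, did not overlap.

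**Figure D1:**
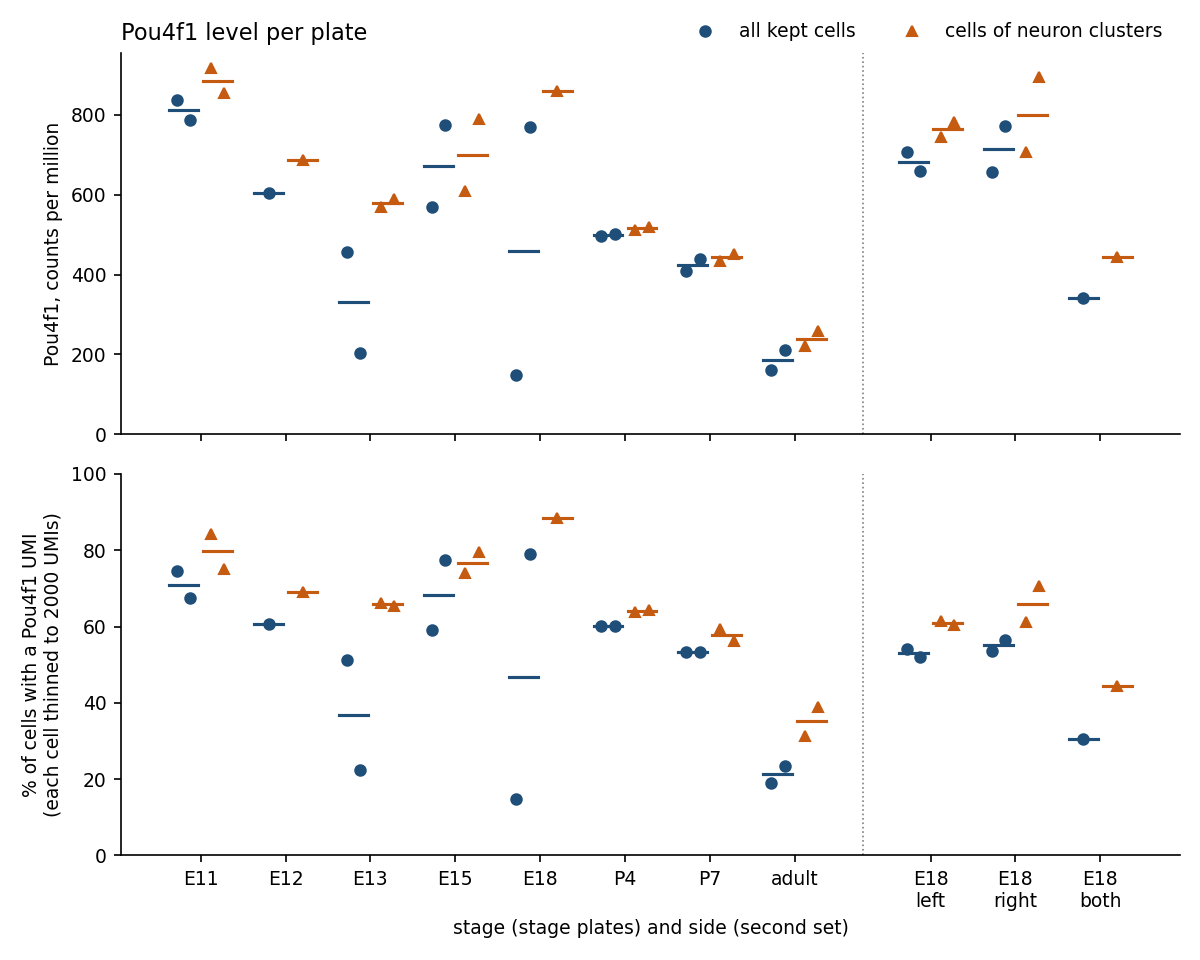
Pou4f1 per plate. The upper panel gives CPM and the lower panel the percentage of cells with a Pou4f1 UMI after thinning each cell to 2000 UMIs, for all kept cells (circles) and for cells of neuron clusters (triangles); each mark is 1 plate and each bar the mean of a group. The circles of E13 and E18 lie far apart, while the triangles fall from 917 and 854 CPM at E11 to 221 and 258 CPM in the adult.

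None of the 6 steps between stages passed edgeR's quasi-likelihood test at an adjusted p under 0.05. From E11 to E13 the mean went from 813 ± 35.4 (SD, n = 2) to 330 ± 178 CPM, a log2 change of -1.43 ± 0.62 (SE) with an edgeR adjusted p of 0.261, where 1.45% of 17453 genes were called. From E13 to E15, at 671 ± 145 CPM, the log2 change was 1.14 ± 0.62 (edgeR adjusted p = 0.492, 0.0917% of genes called). From E15 to E18, at 460 ± 439 CPM, it was -0.62 ± 0.61 (edgeR adjusted p = 0.631, 0.195% called). These steps rest on stages whose plates held different cells, and how far that moved Pou4f1 was not tested by them. The step from E18 to P4, at 499 ± 4.10 CPM, was 0.28 ± 0.61 on the log2 scale (edgeR adjusted p = 0.770, 19.6% called). From P4 to P7, at 424 ± 20.4 CPM, it was -0.25 ± 0.61 (edgeR adjusted p = 1, 0.00573% called), and from P7 to the adult, at 186 ± 36.5 CPM, -1.30 ± 0.62 (edgeR adjusted p = 0.268, 3.58% called). The E18 plates decided both of their steps: without E18 plate 2 the change from E15 was -2.42 (edgeR adjusted p = 0.0101) and that to P4 was 2.11 (edgeR adjusted p = 0.00603), and without E18 plate 1 both changed sign, to 0.09 and -0.50. With the genes of low count left in the fit, the steps from E11 to E13 (-1.49, edgeR adjusted p = 7.90e-05), from E13 to E15 (1.16, 0.00642) and from P7 to the adult (-1.39, 0.000422) passed.

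Because plates of the same stage did not always hold the same cells, the levels were also taken within clusters of neurons. That comparison was added after the values of all cells were seen. Cells were clustered without Pou4f1. Clusters that passed no progenitor, intermediate progenitor, glial, vascular, immune, ependymal or erythroid marker list are called neuron clusters here. There were 10 on the stage plates, with 2561 cells, and their neuron markers summed to 5709 to 15024 CPM against 559 to 2157 CPM in the 10 glial, vascular, immune and ependymal clusters. Of these 10 neuron clusters, 4 passed no list of any kind. The 10 neuron clusters held 78.0% and 75.7% of the cells at E11 and 81.4% at E12. At E13 they held 61.4% and 21.2%, at E15 16.5% and 80.8%, and at E18 0 of 267 cells and 81.8%. Clusters were left out whole, so that 0 sets no limit on neurons on E18 plate 1, where neuron markers summed to 3209 CPM. The E15 gap is not one of neuron markers, which summed to 9576 and 9081 CPM there. The 10 medial habenula markers did differ, at 956 CPM (8 above 0) on E15 plate 1 and 3326 CPM (10 above 0) on E15 plate 2. A cluster that was left out, described further on, came mainly from E15 plate 1. The P4 plates were at 92.3% and 92.9%, the P7 plates at 89.3% and 93.5% and the adult plates at 44.6% and 52.3%.

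Within neuron clusters the E11 plates gave 917 and 854 CPM of Pou4f1, the E12 plate 687 CPM, the E13 plates 571 and 590.1 CPM and the E15 plates 610.3 and 791 CPM. E18 plate 2, the only plate of its stage with such cells, was at 861 CPM. P4 was at 513 and 520 CPM, P7 at 433 and 453 CPM and the adult at 221 and 258 CPM. The E13 plates, 456 and 204 CPM over all cells, thus lay side by side, and the adult plates lay below every other plate. Some of these values rest on few cells: 29 on E13 plate 2, 31 on E15 plate 1 and 25 on adult plate 1. The adult fell against P7 by 0.96 ± 0.21 on the log2 scale (edgeR adjusted p = 0.00698, 9.61% of 17898 genes called). The call was lost without P7 plate 1 (-0.95, edgeR adjusted p = 0.0663) or P7 plate 2 (-0.93, 0.0764), and was kept without adult plate 1 (-0.84, 0.0242) or 2 (-1.24, 0.00210). Different clusters held these neurons: 170 of the 179 on adult plate 2 and 19 of the 25 on adult plate 1 were in the cluster led by Hspa1b and Hspa1a, which held 1 cell of each P7 plate, while most P7 cells were in the clusters led by Slc5a7, by Gpr151 and by Gad1. Over all kept cells the 9 genes that respond to cell dissociation, all above 0, summed to 1977 and 2713 CPM on the adult plates and to 865 and 1030 CPM on the P7 plates. The median mitochondrial share of a kept cell was 11.9% and 5.33% in the adult and 5.14% and 4.76% at P7. The part of these differences in the fall was not tested. E11 to E13 gave -0.72 ± 0.21 (edgeR adjusted p = 0.0616, 4.03% called) and did not pass. The changes from E13 to E15 (0.32 ± 0.21, edgeR adjusted p = 0.622, 0.905% called), E15 to E18 (0.28 ± 0.25, 0.764, 0.425%), E18 to P4 (-0.59 ± 0.25, 0.123, 13.8%) and P4 to P7 (-0.23 ± 0.20, 0.988, 0.352%) did not pass either. The 2 changes with E18 rest on 1 plate there, which is assumed to vary like the other stages.

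Over all kept cells the CPM of the 15 plates fell with the order of stages, with Pearson's r = -0.606 (permutation p = 0.0192, adjusted over 3 relations 0.0575) and Spearman's rho = -0.631 (p = 0.0131, adjusted 0.0394). With both E11 plates left out, as they lie farthest from the middle of the order, r was -0.397 (permutation p = 0.180), so the relation rests on those plates. Within neuron clusters r was -0.832 over 14 plates (permutation p = 0.00032, adjusted over 5 relations 0.0016) and rho -0.847 (p = 0.00026). Without the E11 plates r was -0.739 over 12 plates (permutation p = 0.00611).

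The share of cells with a Pou4f1 UMI was high on most plates and low on E13 plate 2, E18 plate 1 and the adult plates. Over all kept cells the E11 plates had 92.2% and 88.1%, the E12 plate 89.7%, the E13 plates 71.2% and 51.1% and the E15 plates 80.9% and 90.1%. The E18 plates had 28.1% and 85.5%, the P4 plates 92.0% and 90.4%, the P7 plates 90.8% and 88.1% and the adult plates 37.5% and 52.6%. Depth bears on such a share, since the median counts per kept cell ran from 5058 to 29096 over the 20 plates. With every cell thinned to 2000 UMIs the E11 plates stood at 74.7% and 67.4%, E12 at 60.7%, E13 at 51.1% and 22.5%, and E15 at 59.1% and 77.4%. E18 stood at 14.7% and 79.0%, P4 at 60.1% on both plates, P7 at 53.4% on both, and the adult at 18.9% and 23.5%. At even depth P4 and P7 were thus below E11, although their unthinned shares were alike. Thinned shares gave r = -0.441 with stage order (permutation p = 0.102, adjusted 0.152), and -0.726 (permutation p = 0.00234, adjusted over 5 relations 0.00585) within neuron clusters.

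Cells differed widely in how much Pou4f1 they held. Among cells with at least 1 UMI the median was 14 and 10.5 UMIs on the E11 plates, 8 on the E12 plate, 5 and 3 on the E13 plates, 6 and 8 on the E15 plates and 3 and 8 on the E18 plates. Both P4 plates had a median of 10, the P7 plates 9 and 8, and the adult plates 3 and 6. Cells with 20 or more UMIs made up 30.4% of E11 plate 1 and 20.0% of E11 plate 2, 10.5% and 12.1% at P4, and 1.79% and 0% in the adult, where 0 of 342 cells of plate 2 allows a share of up to 0.877%. On E18 plate 1, 71.9% of cells held none. On the C57BL/6 plates, cells with 20 or more UMIs made up 33.2% and 35.2% on the left, 26.9% and 41.4% on the right and 14.1% on the plate of both sides.

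**Figure D2:**
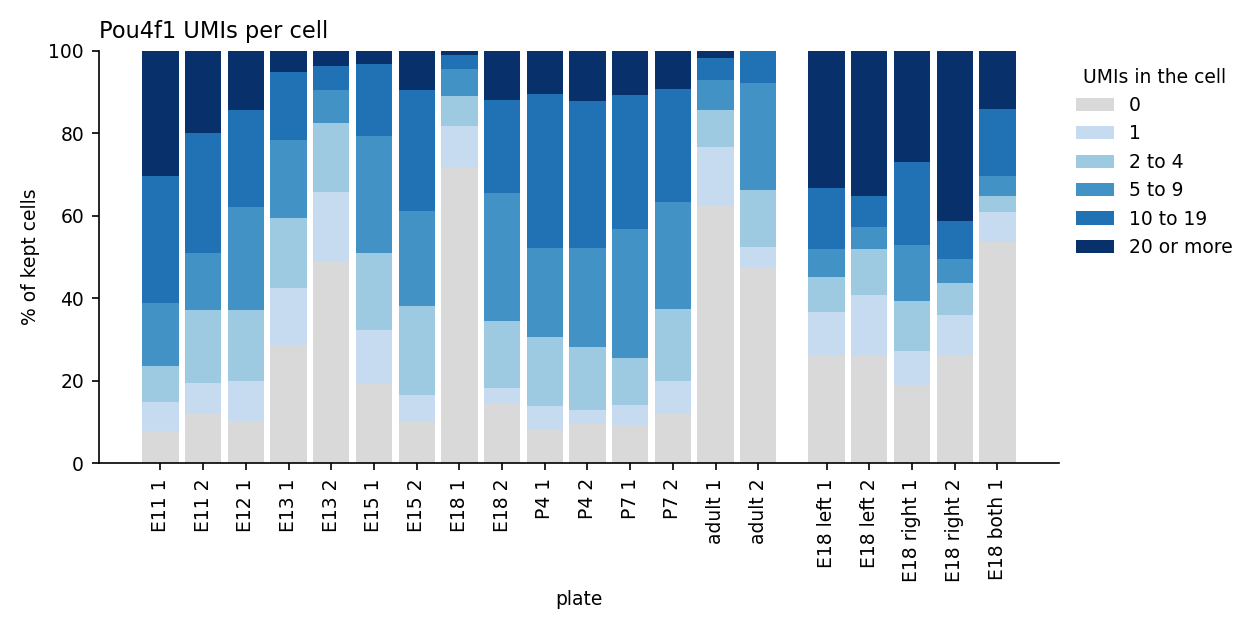
Pou4f1 UMIs per cell on each plate. Each bar is 1 plate and its segments are the percentage of kept cells with 0, 1, 2 to 4, 5 to 9, 10 to 19 and 20 or more UMIs, without thinning. The darkest segment shrinks from 30.4% on E11 plate 1 to 0% on adult plate 2, and the palest is widest, at 71.9%, on E18 plate 1.

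Left and right habenula did not differ in Pou4f1 by more than their plates. The left plates gave 708 and 659 CPM, the right plates 656 and 773 CPM, and the plate of both sides 342 CPM. The right values lay on both sides of the left ones. The means were 683 ± 35.2 (SD, n = 2) and 715 ± 82.8 CPM, and the log2 change from left to right was 0.04 ± 0.19, with a 95% interval of -0.38 to 0.47 (edgeR adjusted p = 1.00). The test called 0 of 15489 genes (0%), with 182 at an unadjusted p under 0.05, and DESeq2 called 1. Without right plate 2 the change was -0.06. Within neuron clusters the left plates were at 746 and 782 CPM, the right at 708 and 894 CPM and the plate of both sides at 443 CPM. Of 209 neuron-cluster cells on the plate of both sides, 69 were in the clusters that passed the thalamus or GABAergic list, described further on, against 4 to 28 cells on each left or right plate. Without those clusters it was at 664 CPM, the left plates at 878 and 838 CPM and the right plates at 771 and 963 CPM. The change from left to right over all neuron clusters was 0.06 ± 0.18 (interval -0.36 to 0.47, edgeR adjusted p = 1.00), with 0 of 14376 genes called (0%) and 230 at an unadjusted p under 0.05. Of 6 hemoglobin and other erythroid markers, 5 have a row in this set, and all 5 were above 0 on each of these plates. They summed to 19048 and 17219 CPM on the left, 3410.1 and 265 CPM on the right and 26.0 CPM on the plate of both sides. Their part in the left and right values was not tested.

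Thinned shares of cells with a UMI were 54.0% and 52.1% on the left, 53.6% and 56.6% on the right and 30.5% on the plate of both sides. That plate had 62.8% of its cells in neuron clusters, against 67.1% and 81.5% on the left and 78.5% and 75.9% on the right.

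By cluster, most Pou4f1 UMIs lay in neuron clusters. On the stage plates the 10 neuron clusters ranged from 257 to 976 CPM and held 90.9% of all Pou4f1 UMIs, and 94.9% of their cells had a UMI (66.7% after thinning). The 10 glial, vascular, immune and ependymal clusters, 423 cells of classes not known for Pou4f1, ranged from 10.6 to 84.2 CPM and held 0.386% of its UMIs. In them 13.7% of cells had a UMI, 4.37% after thinning, with median counts of 3959 to 12501 per cell. That share is the background against which the others stand. The cycling progenitor cluster, led by Ttr, Top2a and Mki67, was at 41.9 CPM, within this range. Of its cells 31.1% had a UMI, above the 6.06% to 22.0% of the single clusters of that background, and 5.10% did after thinning, within their 0% to 8.70%.

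Of the clusters that passed the intermediate progenitor list, some lay within the range of the neuron clusters and some below it. The cluster led by Neurod4, Nhlh1 and Lhx1, basic helix-loop-helix and LIM factors of newborn neurons, was at 439 CPM, with 72.0% of cells positive. Another, led by Tbr1, Eomes and Neurog2, was at 143 CPM, with 54.2% positive and 57.6% of its cells from E13 plate 2. The third, led by Cntn2, Shisa2 and Lmo1, stood at 640 CPM and came mainly (63.0%) from E15 plate 1. Other genes that lead it, such as Dcc and Sema3c, are known from growing axons, so it is given no cell type name. At resolution 0.5, a coarser clustering, Cntn2, Shisa2 and Lmo1 led 1 cluster with Nrxn3 and Cbln2, which passed no list and was at 790.4 CPM. The cluster of 640 CPM was left out of the neuron clusters above, and its cells were at 635 and 774 CPM on the E15 plates, beside 610.3 and 791 CPM in the neuron clusters there. The cluster that held most of E18 plate 1 (80.8% of it from that plate), led by Tmem132c, Nfia and Pax6, was at 243 CPM, and 42.3% of its cells had a UMI.

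Among neuron clusters the level was highest in the cluster led by Onecut3, a homeodomain factor of early neurons, whose cells came mainly from E11, at 976 CPM and 99.0% positive. The cluster led by Nrxn3 and Cbln2, mainly from E15 plate 2, was at 793 CPM. Clusters that passed the medial habenula list lay lower than these. Those led by Slc5a7, by Gpr151 and by Gad1 held most P7 cells, so stage and cell type cannot be told apart here. The one led by Slc5a7, the choline transporter, was at 447 CPM, the one led by Gpr151, a habenular orphan receptor, at 438 CPM and the one led by Gad1, Cck and Wif1, which passed the lateral list too, at 562 CPM. The adult cluster led by the heat-shock genes Hspa1b and Hspa1a and by Htr2c and Tac2, a serotonin receptor and a tachykinin, passed the medial and the lateral habenula lists and was at 257 CPM, with 92.2% of cells positive and a median of 6 UMIs. Nearly all of these cells held Pou4f1, at a low level.

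**Figure D3:**
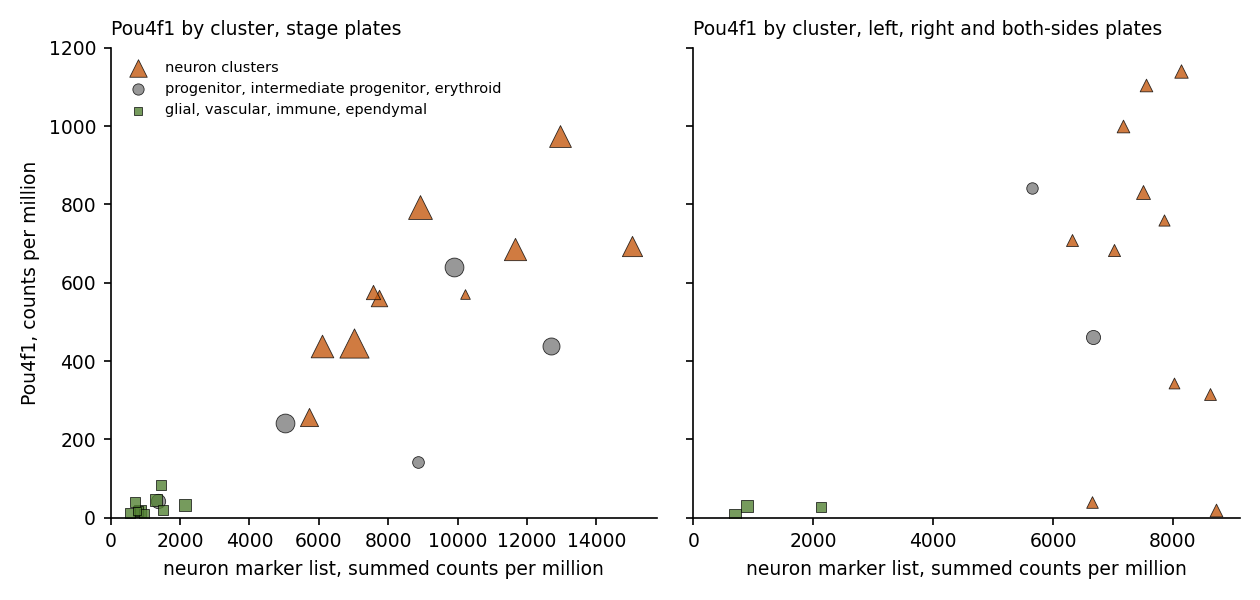
Pou4f1 by cluster, for the stage plates (left) and the left, right and both-sides plates (right). Each mark is 1 cluster, its area grows with the number of cells, and the axes give the summed neuron markers and Pou4f1 in CPM. Squares of glial, vascular, immune and ependymal clusters lie at 84.2 CPM or less, and neuron clusters (triangles) of the stage plates at 257 CPM or more, while 2 neuron clusters of the other set lie low, at 21.2 and 39.7 CPM.

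On the C57BL/6 plates at E18 not all neurons held Pou4f1. The 11 neuron clusters (763 cells) ranged from 21.2 to 1139 CPM, and 77.5% of their cells had a UMI (57.7% thinned). The cluster led by Fam163a and Onecut1 was at 1139 CPM, that led by Kcng4 and Wif1 at 1105 CPM and that led by Nrgn and Etv1 at 1001 CPM. The Kcng4 and Nrgn clusters passed the medial habenula list, as did the cluster led by Rasgrp1 and Neurod6, at 832 CPM. In the Fam163a and Kcng4 clusters every cell, 89 of 89 and 75 of 75, had a UMI. The cluster that passed the lateral habenula list, led by Kcnip4 and Tmem255a, was at 317 CPM, with 74.2% of cells positive. The cluster that passed the thalamus list, led by Gbx2, a homeodomain factor of thalamic neurons, was at 21.2 CPM, and 22.1% of its cells had a UMI (2.63% thinned). The cluster led by Gad2 and Tbr1, which passed the GABAergic and lateral habenula lists, was at 39.7 CPM, and 31.0% of its cells had a UMI (12.3% thinned). The 3 glial clusters (162 cells) were at 8.10 to 29.0 CPM, with 25.9% of cells with a UMI (3.73% thinned), so the Gbx2 cluster lay within their range and the Gad2 cluster above it. The cluster of erythroid markers, 55 wells of which 94.5% were on left plate 1, was at 841 CPM with 52.7% positive. At a coarser clustering (resolution 0.5) an erythroid cluster of 35 wells was at 127 CPM with 28.6% positive. Wells of high erythroid markers thus included some with many Pou4f1 UMIs, and whether those held more than 1 cell was not tested.

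Most Pou4f1 counts were deposited as spliced. Reads lay near 3′ ends, where Pou4f1-201 has a last exon of 2869 bases, and how they were assigned is not given. A read within that exon would not show whether an intron had been removed. The shares below therefore describe the deposited labels, not transcripts. Spliced and unspliced counts were deposited beside the total, and after the collision correction was inverted to whole UMIs the total equalled their sum in every entry. Of Pou4f1 counts 91.6% and 88.8% were spliced on the E11 plates, 91.7% on the E12 plate, 94.0% and 91.4% on the E13 plates, 93.9% and 90.2% on the E15 plates and 92.5% and 89.6% on the E18 plates. The P4 plates had 95.1% and 93.2%, the P7 plates 94.9% and 95.6% and the adult plates 86.0% and 93.7%. The left plates stood at 95.3% and 94.0%, the right plates at 95.1% and 97.2% and the plate of both sides at 93.2%. Over all genes 71.0% to 82.4% of a plate's counts were spliced. Among the 2260 genes of at least 100 CPM on the stage plates, whose median was 89.3%, Pou4f1, at 92.4%, lay above 55.9%. In the other set, at 95.2%, it lay above 63.4% of 2307 genes.

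The spliced share rose from E11, 90.2% ± 2.01 (SD, n = 2), to P7, 95.2% ± 0.455, and the groups did not overlap. In one model of both kinds of count, the ratio of spliced to unspliced rose by 1.10 ± 0.33 on the log2 scale (edgeR adjusted p = 0.0214, 5.39% of 15886 genes called). The median of all genes moved by 0.24. The call was lost when any 1 of the 4 plates was left out (edgeR adjusted p from 0.106 to 0.477). From P7 to the adult, at 89.8% ± 5.47, the change was -0.84 ± 0.39 (edgeR adjusted p = 0.501, 0.793% called) with a median of -0.23 over all genes. From left to right, 94.7% ± 0.939 to 96.1% ± 1.51, it was 0.50 ± 0.42 (edgeR adjusted p = 1, 0.00733% called). With stage order the spliced share gave r = 0.198 (permutation p = 0.480, adjusted 0.480) and rho = 0.329 (permutation p = 0.233). Adult plate 1, with 56 cells, decided that value: without it r was 0.640 (permutation p = 0.0146).

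**Figure D4:**
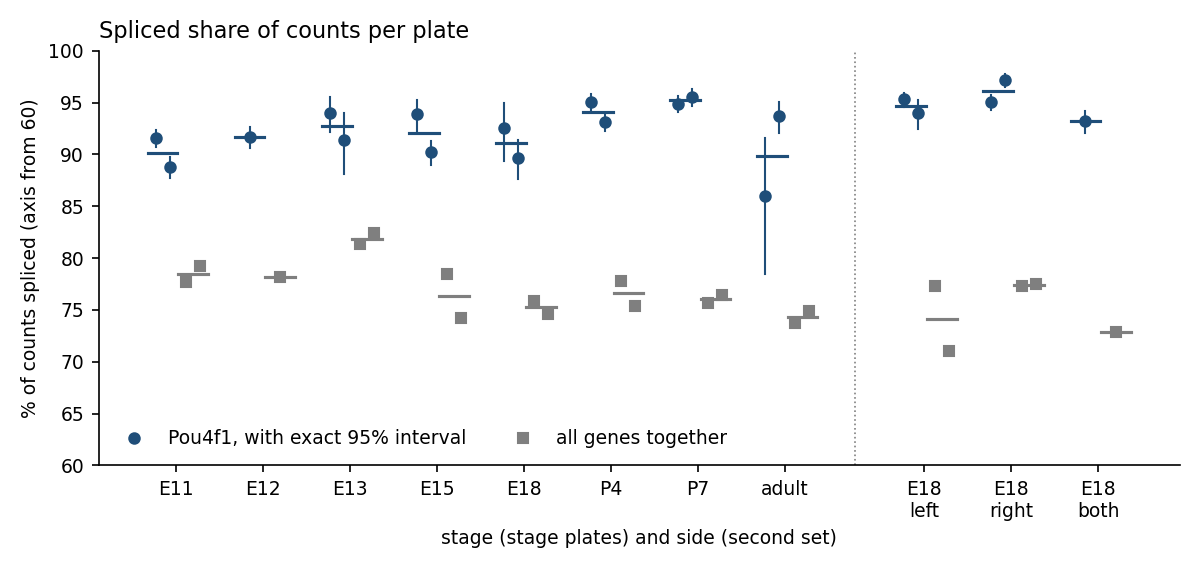
Spliced share of Pou4f1 counts per plate (circles, with the exact 95% interval of counting error) and of all genes (squares), in percent, on an axis that starts at 60. Pou4f1 lies above the share of all genes on every plate, and adult plate 1 has the widest interval and the lowest value, 86.0%.

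Which genes went with Pou4f1 was asked within plates. Cells were thinned to 2000 UMIs, split by whether they then held a Pou4f1 UMI, and summed per plate, with the plate as a block. Cells called without Pou4f1, here and below, lack a UMI at that depth, and many held one before thinning. P7 plate 1 had 151 such cells, against 30 kept cells without a UMI before thinning. On E18 plate 1 these numbers were 221 and 192, and on left plate 1 121 and 74. On the stage plates 14 had at least 10 cells of each kind, 1925 with and 1607 without, and adult plate 1, with 7 cells with a UMI, was left out. Of 5263 genes 459 passed (8.72%), 221 higher (4.2%) and 238 lower (4.52%) in cells with Pou4f1. In the other set, with 484 cells with and 553 without, 698 of 5263 passed (13.3%), 308 higher (5.85%) and 390 lower (7.41%). The kinds of cell also differed in class. On the stage plates 85.5% of cells with Pou4f1 and 50.5% of those without were in neuron clusters, and on the other plates 87.8% and 56.2%. Within neuron clusters 0 of 4836 genes (0%) passed on 11 stage plates (1611 cells with, 797 without), with 222 at an unadjusted p under 0.05. Without thinning 94.9% of the neuron-cluster cells on the stage plates had a UMI, so most of those 797 held Pou4f1 at full depth. The 0 therefore says little about neurons that lack Pou4f1. In the other set 374 of 3965 (9.43%) passed, 167 higher and 207 lower (425 cells with, 311 without). Of these, 9 cells with and 124 without came from the clusters that passed the thalamus or GABAergic list. With both of those clusters left out too, also chosen after seeing the data, 147 of 2763 genes passed (5.32%), 56 higher and 91 lower (416 cells with, 187 without). The remaining cells with and without Pou4f1 may still come from different clusters in unequal shares. The difference between these counts was not tested.

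The long noncoding RNAs D130079A08Rik and D130009I18Rik were among the 12 with the largest rise, for which they were chosen. D130079A08Rik was at 111 CPM (mean of plates) in cells with Pou4f1 and 56.0 CPM in cells without, and was higher in cells with it on 14 of 14 plates. Its log2 change was 0.89 ± 0.16 (edgeR adjusted p = 0.000498). In the C57BL/6 set it was 295 and 40.8 CPM, a change of 2.24 ± 0.26, higher on 5 of 5 (edgeR adjusted p = 2.35e-08). D130009I18Rik was at 140.1 and 60.1 CPM, higher on 13 of 14 plates and at 0 in both on E13 plate 1, with a change of 1.04 ± 0.17 (edgeR adjusted p = 0.000202). In the C57BL/6 set it stood at 339.8 and 65.6 CPM, 2.31 ± 0.29 (edgeR adjusted p = 1.36e-07). Within neuron clusters of the stage plates the changes were 0.32 ± 0.16 (edgeR adjusted p = 0.999) and 0.56 ± 0.14 (0.211). Within those of the left and right plates they were 1.96 ± 0.27 (edgeR adjusted p = 9.99e-08) and 1.78 ± 0.26 (6.17e-07) and passed. Without the thalamus and GABAergic clusters they were 1.44 ± 0.30 (edgeR adjusted p = 0.00120) and 1.25 ± 0.26 (0.00116), each higher on 5 of 5 plates.

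Over all kept cells of a plate, D130079A08Rik ran from 20.4 CPM on E18 plate 1 to 204 CPM on E18 plate 2, and D130009I18Rik from 7.39 CPM on E13 plate 1 to 228 CPM on E11 plate 1. Their levels did not follow that of Pou4f1 on every plate: on E13 plate 1 D130009I18Rik was at its lowest while Pou4f1 stood at 456 CPM. Rnf219, a ubiquitin ligase gene 9536 bases from Pou4f1 on its other side, was at 15.8 to 51.2 CPM and too low for the test, as was another long noncoding RNA near by, 4930432J09Rik, at 0 to 2.00 CPM. Both were picked after their values were seen. On few UMIs, Rnf219 stood at 42.3 CPM with and 20.7 CPM without Pou4f1 on left plate 1, and at 0 in both on left plate 2. It was at 70.9 and 35.2 CPM on right plate 1, 36.2 and 28.3 on right plate 2, and 50 and 26.3 on the plate of both sides. On the stage plates it went either way, with 37.4 and 64.9 CPM on E11 plate 1 and 50.7 and 31.8 CPM on E11 plate 2.

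**Figure D5:**
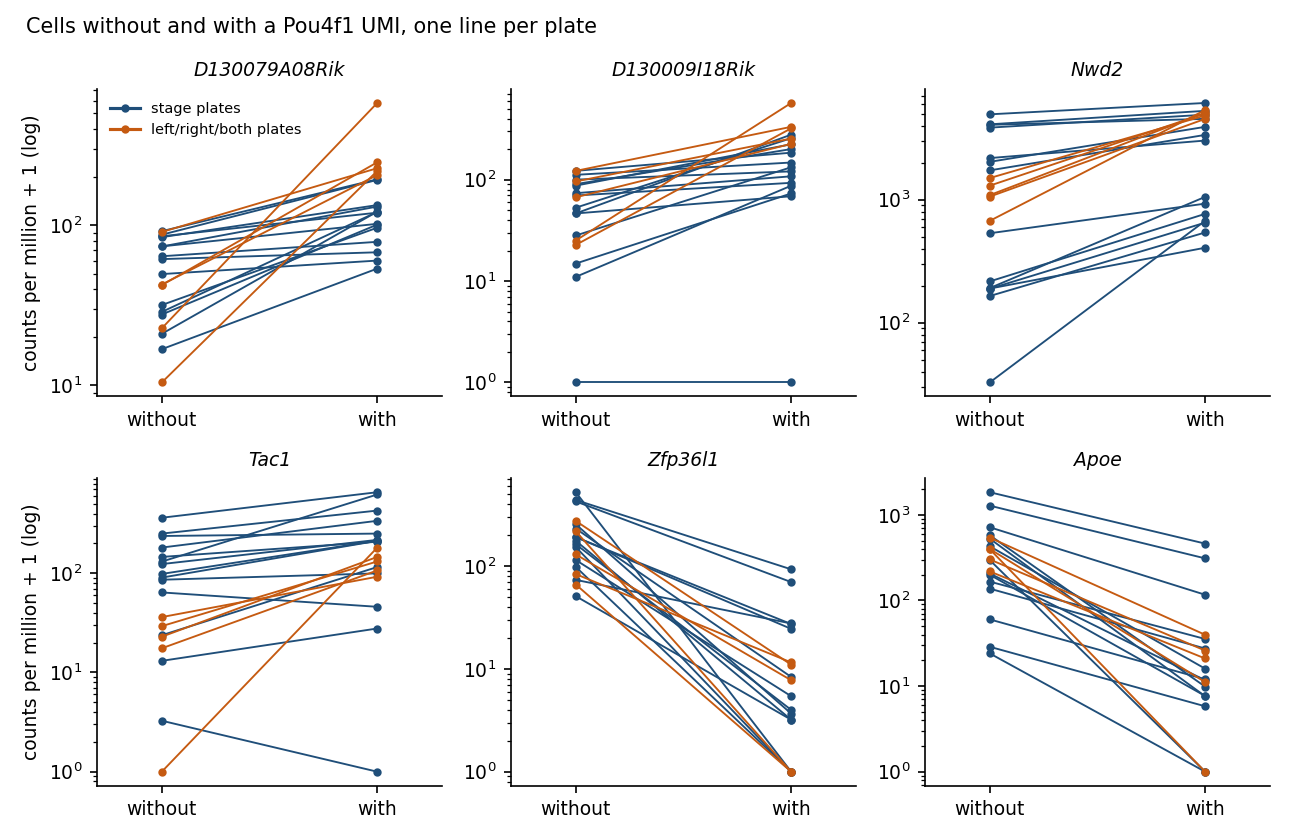
Cells without and with a Pou4f1 UMI, each thinned to 2000 UMIs. Each line joins both values of 1 plate, as CPM plus 1 on a log axis, for 6 genes, with stage plates and left, right and both-sides plates in different colours. D130079A08Rik and Nwd2 rise on every plate shown, and Zfp36l1 and Apoe fall on every plate.

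Nwd2, Tac1 and Kcnma1 also rose in both sets. Nwd2, which marks medial habenula neurons, was at 2577 CPM with and 1740 CPM without Pou4f1, higher on 14 of 14 plates (0.99 ± 0.18, edgeR adjusted p = 0.000498), and at 4959 and 1122 CPM on the left and right plates (2.14 ± 0.19, 8.21e-11). Tac1, the precursor of substance P, was at 244 and 128 CPM (0.79 ± 0.14, edgeR adjusted p = 0.000422), and at 130.5 and 20.4 CPM in the other set (2.28 ± 0.32, 8.95e-07). On the stage plates it was lower in cells with Pou4f1 on E18 plate 1 (0 and 2.26 CPM) and P4 plate 1 (44.9 and 63.1 CPM). Kcnma1, a calcium-activated potassium channel, changed by 0.83 ± 0.14 (edgeR adjusted p = 0.000276) and by 1.48 ± 0.18 (8.35e-08). The log2 changes of Shank1, a synaptic scaffold (0.84), Gm45455 (0.79), St6galnac5, a sialyltransferase (0.79), Gm44645 (0.77), Schip1 (0.77), Gm21949 (0.76) and Cadm2, an adhesion molecule (0.75), also passed on the stage plates. In the other set all of these passed in the same direction but Shank1 (-0.39 ± 0.29, edgeR adjusted p = 0.496) and Gm44645 (0.70 ± 0.32, 0.180). Schip1 overlaps Iqschfp and Gm45455 overlaps Gm45341. The UMIs of Schip1 and Gm21949 were alike on many plates, with 49 in cells with and 65 in cells without Pou4f1 for each on E18 plate 1. They were less alike on E13 plate 2 (83 and 75 against 117 and 76). Whether these 2 genes share reads was not tested. Many other named genes overlap a further gene on the other strand, and the labels do not say whether counting used strand, so these counts are uncertain.

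Genes that fell included Apoe and Fabp7, known from astrocytes and radial glia. Zfp36l1, an RNA-decay factor, was at 18.5 CPM with and 220 CPM without Pou4f1, lower on 14 of 14 plates (-3.99 ± 0.29, edgeR adjusted p = 1.14e-10), and changed by -4.37 ± 0.38 (4.29e-11) in the other set. Apoe, the lipid carrier of astrocytes, was at 72.1 and 462 CPM (-3.27 ± 0.26, edgeR adjusted p = 2.77e-10). Selenop (-3.62), Fabp7, the fatty acid binding protein of radial glia (-3.23), Sparc (-3.22), Ptn (-2.93), Gm49394 (-2.78), which overlaps Igf2, and Col4a1, a basement membrane collagen (-2.59), fell too. Col4a1 was not tested in the other set, where it was higher in cells with Pou4f1 on 4 of 5 plates. All 4 progenitor markers tested of 9 (Fabp7, Pax6, Sox2, Vim) fell in both sets, where 4.52% and 7.41% of all genes were lower. Fabp7 is also among the lowest genes named above. Within neuron clusters 1 progenitor marker was tested in each set and 0 passed, where 0% and 9.43% of all genes did. Of the genes tested in both sets (4719), 107 were higher in both, which is 49.3% of the 217 higher on the stage plates and 38.9% of the 275 higher in the other set. Those lower in both numbered 112, 55.2% of 203 and 37.2% of 301. Over all genes tested in each set, 4.2% and 5.85% were higher and 4.52% and 7.41% lower. In both sets the cells with and without Pou4f1 differ in class, as given above. The part of that in the overlap was not tested.

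Among other POU genes, cells with Pou4f1 had more Pou3f1 and, on the stage plates, less Pou3f2. Of 14 family members, 8 could be tested on the stage plates, and the median log2 change was -0.04 against 0.01 over all genes. Over all genes 4.2% were higher and 4.52% lower there, and 5.85% and 7.41% in the C57BL/6 set. Pou3f1, a class III factor of migrating and differentiating neurons, was at 313 and 184 CPM (0.57 ± 0.18, edgeR adjusted p = 0.0473). Pou3f2, also known as Brn2, was lower, at 85.1 and 127 CPM (-0.72 ± 0.17, edgeR adjusted p = 0.00643). Of the family, 7 were tested in the C57BL/6 set, where Pou3f1 was at 410 CPM in cells with Pou4f1 and 116 CPM in those without (1.67 ± 0.21, edgeR adjusted p = 1.45e-07). Within neuron clusters Pou3f1 passed in the C57BL/6 set, where 9.43% of all genes did. Within those of the stage plates 0 of 8 family members passed, as did 0% of all genes. The paralogs Pou4f2 and Pou4f3 were too low for the test in both sets.

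Of 5 partners of the Pou4f1 protein too few were tested to read their count. Ewsr1, Hipk2 and Rit2 were tested on the stage plates, with changes of -0.20, -0.12 and 0.03, and 0 of 3 passed where 8.72% of all genes did. With Trp53 they were tested in the other set, with changes of -0.31 to -0.08, and 0 of 4 passed where 13.3% of all genes did. Isl1, a LIM factor that acts with Pou4f1 in sensory neurons, was too low in both.

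Of 15 genes tied to Pou4f1 by mouse mutants or reporter assays, 10 were tested on the stage plates, 5 were higher (Ina, Nefl, Nr4a2, Snap25, Tac1) and Bcl2 was lower, and the median was 0.37 against 0.01. Over all genes 4.2% were higher and 4.52% lower there. Ina, a neuronal intermediate filament, was at 2164 and 1594 CPM (0.54 ± 0.12, edgeR adjusted p = 0.00428), and Nr4a2, a nuclear receptor of habenular neurons, at 468 and 383 CPM (0.46 ± 0.13, 0.0237). Bcl2, the survival factor, was at 48.0 and 78.0 CPM (-0.67 ± 0.20, edgeR adjusted p = 0.0272). In the C57BL/6 set 9 were tested, 6 were higher (Etv1, Ina, Neurod1, Nr4a2, Snap25, Tac1) and 2 lower (Bcl2, Gap43), with a median of 0.96 against -0.01. Over all genes 5.85% were higher and 7.41% lower in that set. Etv1, an ETS factor, was at 582 and 207 CPM (1.43 ± 0.16, edgeR adjusted p = 1.25e-08), and Bcl2 at 41.2 and 152 CPM (-1.76 ± 0.26, 2.35e-06). Within neuron clusters of the stage plates 0 of 9 tested passed, as did 0% of all genes, with a median of -0.02 against 0.01. Within neuron clusters of the C57BL/6 set 5 stayed higher (Etv1, Ina, Neurod1, Nr4a2, Tac1), while Gap43 and Nefl were lower and Bcl2 was not tested. There 9.43% of all genes passed. Without the thalamus and GABAergic clusters Etv1, Ina and Tac1 were higher and Gap43 lower of 8 tested, where 5.32% of all genes passed. Nefl and Snap25 also stand on the list of neuron markers, and Nr4a2 and Etv1 on that of habenular and thalamic factors.

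Of 16 transcription factors of the dorsal diencephalon and young neurons, 12 were tested on the stage plates and 5 were higher (Irx2, Lhx9, Nhlh2, Nr4a2, Zic1), with a median of 0.32 against 0.01. Over all genes 4.2% were higher and 4.52% lower there. Lhx9, a LIM factor, was at 863 and 631 CPM (0.48 ± 0.11, edgeR adjusted p = 0.00808). In the other set, where 5.85% of all genes were higher and 7.41% lower, 13 of these factors were tested. Of them 8 were higher (Ebf1, Etv1, Irx2, Lhx9, Lmo3, Nhlh2, Nr4a2, Onecut1) and Lhx2 was lower, with a median of 0.60 against -0.01. Onecut1 was at 107 and 29.1 CPM there (1.93 ± 0.32, edgeR adjusted p = 1.58e-05) and Lhx2, a factor of thalamic neurons, at 27.6 and 70.6 CPM (-1.31 ± 0.39, 0.0165). Within neuron clusters of that set 7 were higher and Tcf7l2 lower, where 9.43% of all genes passed. Without the thalamus and GABAergic clusters 3 of 10 were higher (Etv1, Lhx9, Nhlh2), where 5.32% of all genes passed. Within neuron clusters of the stage plates 0 of 13 passed, as did 0% of all genes.

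Habenular and thalamic markers split on the left and right plates, where 5.85% of all genes were higher, 7.41% lower and the median log2 change was -0.01. Of the medial habenula list 4 of 5 tested were higher (Chrna3, Gng8, Lrrc55, Nwd2), and of the lateral habenula list Gpr151 was higher and Chrm3, Pcdh10 and Syn2 lower of 4 tested. Of 4 thalamus markers Lef1 was higher and Lhx2, Prox1 and Rora lower. Of 10 neuron markers 3 were higher (Elavl3, Elavl4, Snap25). Within neuron clusters, where 9.43% of all genes passed, 0 of them were higher and Nefl was lower. All 4 astrocyte markers tested and 3 of 4 oligodendrocyte markers were lower. For the stage plates 3 of 4 medial habenula markers (Chrna3, Gng8, Nwd2), 0 of 2 lateral ones and 9 of 10 neuron markers were higher, and Rora was lower among 4 thalamus markers. Of 4 genes that respond to cell dissociation, Dusp1, Egr1 and Fos were lower there. Hes6 was lower among 3 intermediate progenitor markers on the stage plates, and Neurod1 higher among 2 on the others. The median log2 changes on the left and right plates were 1.65 for the medial habenula list, -0.86 for the lateral one, -1.27 for thalamus, 0.29 for neuron, -3.73 for astrocyte and -3.11 for oligodendrocyte markers. On the stage plates, where 4.2% of genes were higher, 4.52% lower and the median was 0.01, they were 0.47 for the medial habenula list, 0.24 for the lateral one, 0.39 for neuron and -0.08 for thalamus markers and -0.85 for the dissociation genes. With the thalamus and GABAergic clusters left out, Gng8 and Nwd2 were higher of 5 medial habenula markers, Pcdh10 lower of 3 lateral ones and Rora lower of 3 thalamus markers within the neuron clusters of the left and right plates. In that comparison 5.32% of all genes passed. Microglial, endothelial, mural and ependymal markers did not pass the count filter of this test in either set.

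As a second measure, each gene's level was correlated with that of Pou4f1 over the cells of each plate, after both were freed of their relation to the cell's total, and averaged over plates. Cells of a plate share its library, and the values are a description. All kept cells entered, neurons and other classes alike, and the part of that mixture in these values was not tested. In the split by a Pou4f1 UMI, 0 of 33 named genes stayed called within neuron clusters of the stage plates (8 were not tested). On the left and right plates 17 of 27 did. Over 9563 genes the mean rho had a median of 0.02, a lowest percentile of -0.12 and a highest of 0.23. The highest was Nwd2, at 0.37 (0.24 to 0.65 over 15 plates), then Uchl1 and Rtn1 (both 0.36), Stmn2, Cacnb3 and Kcnma1 (0.35, 0.35 and 0.35), Elavl4 (0.34), Mllt11, Syt13, Lhx9 and Crmp1 (0.33 each) and Ina (0.32). As background, Uchl1 and Stmn2 are abundant neuronal proteins and Elavl4 binds neuronal RNA. The lowest were Zfp36l1 (-0.34), Sparc (-0.29), the microRNA host gene Mir99ahg (-0.27), Sparcl1 (-0.25), Ptprk (-0.23), Apoe, Npas3 and Tcf4 (-0.22 each).

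In the C57BL/6 set the same was done over 5 plates. Over 10618 genes the lowest percentile was -0.25 and the highest 0.39. Nwd2 stood at 0.74 (0.70 to 0.81 over 5 plates), D130079A08Rik at 0.67 (0.59 to 0.76), Kctd8 at 0.66, Necab2 at 0.65, Kcnma1 at 0.63, Ina and Rgs6 at 0.62 and D130009I18Rik at 0.61. Gng8, Islr2, Robo3, an axon guidance receptor, and Pde2a followed at 0.59 each. Kctd8 is an auxiliary subunit of GABA-B receptors, Gng8 a G-protein subunit of medial habenula and Rgs6 a regulator of G-protein signalling. Among the 8 lowest were Mir99ahg (-0.55), Adgrb3 (-0.46), Ptn (-0.45), Sez6l (-0.44), Ptprt (-0.42), Cacna1a and Rbfox1 (-0.41 each). Of the 12 highest in each set 3 were shared (Nwd2, Kcnma1, Ina), and of the 8 lowest 1 (Mir99ahg).

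Over the 15 stage plates, log2 levels of Hdgfl3 ran closest to those of Pou4f1 among 8482 genes, with r = 0.98. Fbxo21, Atf2 and Cep170 (0.95 each), Nav3 and Reep1 (0.94 each) followed. Asxl2 (-0.96), Daam2 (-0.96), Eci1 (-0.95) and Mfge8 (-0.95) ran most against it. Hdgfl3 ranged from 94.9 CPM on adult plate 1 to 308 CPM on E15 plate 2. Mfge8, a milk fat globule protein of astrocytes, ranged from 0.594 CPM on E15 plate 2 to 171 CPM on E18 plate 1. Without E18 plate 1 and adult plate 1, these 10 values lay at 0.88 to 0.97 and at -0.95 to -0.90. The plates differ in their share of cells in neuron clusters, as given above, and its part in these values was not tested.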

How the data were processed

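Pou4f1 and the lists were chosen with earlier results of these data known. Per the submitters' processing notes, reads were handled with Trim Galore and STAR 2.5.3a against mm10. How reads were counted, with which annotation and strand use, the labels do not give. The authors deposited total, spliced and unspliced tables of expected counts per gene and well. Their values equal UMI numbers corrected for collisions among 4096 possible UMIs: inverting that formula gave whole UMIs for 100% of values. The planned test takes whole counts, so deposited values were summed per plate and rounded. Spike-in rows (92 per set) stayed out of library sizes and tests. Wells are named by plate and well number, so shared barcodes were not counted. No doublet caller was run.

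Kept wells had at least 1000 UMIs, 500 genes and at most 20% mitochondrial counts. Levels are counts per 1e6 counts (CPM) over the kept cells of a plate. Intervals are exact (Clopper-Pearson for shares), at 95%, and with the limit of 3 counts cover counting error only. Leiden clustering (scanpy 1.11.5, leidenalg 0.10.2, Python 3.11.15) used 2000 variable genes without Pou4f1, mitochondrial and sex genes, 30 components, 15 neighbours and resolution 1. A cluster passed a list with at least 3 of its markers at 2-fold or more and in at least 20% of cells. Plate sums were tested over all genes with edgeR 4.0.16 (filterByExpr, TMM, quasi-likelihood), with limma 3.58.1 and DESeq2 1.42.0 under R 4.3.3, and Benjamini-Hochberg adjustment at 0.05. All stages entered 1 fit. Spliced against unspliced counts were tested as an interaction with plate as a block. Stage order used 100000 permutations, two-sided. The tests were checked on simulated data.

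Genes were named by rule: from cells with against without Pou4f1, the 12 highest and 8 lowest changes among called genes of at least 20 CPM with the same sign on at least 12 plates; from cells within plates, the 12 highest and 8 lowest mean correlations; across plates (log2 of CPM plus 1), the 6 highest and 4 lowest; and the lists. The values of some genes that the rule names are not reported here. Alternatives were other scaling, no count filter, DESeq2, other thinning (1000 UMIs, none), at least 2 UMIs, a minimum of 2000 UMIs, the replicate block, plates left out in turn and, chosen after seeing the data, neuron clusters only, with and without the thalamus and GABAergic ones.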

Additional observations from a re-analysis of the deposited data

Results flagged for a closer look

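Pou4f1 UMIs also appeared in wells that were not kept as cells. On the stage plates 148 UMIs lay in 127 of 2027 such wells (6.27%), at 287 CPM of their counts and at 0% to 6.92% of a plate's Pou4f1 UMIs. On the left and right plates 135 UMIs lay in 114 of 838 wells (13.6%), at 385 CPM and at 0.178% to 4.51% of a plate's UMIs. Both totals are above 3, the upper limit on the expected count when 0 are seen. The source of these UMIs was not tested.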

How the results depend on the processing

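Kept wells ranged from 54 to 345 per plate, 2 plates per group limit every comparison of groups, and the plates of E13, E15 and E18 differ in their cells. Within neuron clusters, chosen after seeing the data, E15 to E18 became 0.28 and E18 to P4 -0.59, P7 to adult passed (-0.96, edgeR adjusted p = 0.00698), the thinned share gave r = -0.726 with stage order, and the genes differing with Pou4f1 numbered 0 on the stage plates and 374 on the left and right plates, or 147 with the thalamus and GABAergic clusters left out too. There Rtn1 (-0.00407), Stmn2 (-0.0469), Elavl4 (-0.0207) and Crmp1 (-0.0523) reversed on the stage plates, 0 of 33 named genes stayed called (8 were not tested), and 17 of 27 did on the left and right plates. Without the thalamus and GABAergic clusters 14 of 27 stayed called there (5 were not tested) and Uchl1 reversed (-0.0590). Without the count filter E11 to E13 (-1.49, edgeR adjusted p = 7.90e-05), E13 to E15 (1.16, 0.00642) and P7 to adult (-1.39, 0.000422) passed, as did P7 to adult with its 4 plates alone (-1.22, 0.0305). Spliced counts alone turned left to right to -0.000204. The cause of these moves was not tested. The other level steps kept their direction and side under another scaling, DESeq2, recovered UMIs and the 2000-UMI minimum.

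Leaving out plates in turn, the log2 changes ran from -2.27 to -0.98 (E11 to E13), 0.68 to 1.97 (E13 to E15), -2.42 to 0.09 (E15 to E18), -0.50 to 2.11 (E18 to P4), -0.30 to -0.21 (P4 to P7), -1.46 to -1.15 (P7 to adult; -1.24 to -0.84 within neuron clusters) and -0.06 to 0.14 (left to right). Reversals came without E18 plate 1 (0.0947 and -0.503) and right plate 2 (-0.0569), and passes without E18 plate 2 (-2.42 and 2.11). Spliced against unspliced ran from -1.71 to -0.43 (P7 to adult), 0.87 to 1.34 (E11 to P7) and 0.10 to 0.95 (left to right), and r with stage order from -0.727 to -0.522 (CPM), -0.566 to -0.331 (thinned share) and 0.0547 to 0.640 (spliced share). With both E11 plates out r was -0.397 for CPM. The thinned share gave -0.552 at 1000 UMIs and -0.534 with at least 2 UMIs.

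Genes differing with Pou4f1 on the stage plates numbered 459; they were 464 with other size factors, 392 with DESeq2, 1486 without the filter (30.2% of them higher, against 48.1%), 96 at 1000 UMIs, 3659 without thinning, 128 with at least 2 UMIs (27.3% higher) and 333 to 464 without 1 plate. On the left and right plates 698 became 700, 430, 1072, 254, 2268, 510 and 509 to 798 in the same order.

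The labels do not say whether a number marks a shared animal or day, and the plates were not taken as paired. Deviations of same-numbered plates correlated at -0.24 (E11, E13), -0.35 (E13, E15), 0.43 (E15, E18), -0.02 (E18, P4), 0.13 (P4, P7), 0.07 (P7, adult) and 0.27 (left, right). With the replicate block the changes were -1.38, 1.06, -0.70, 0.38, -0.25, -1.32 and 0.04, and no call of Pou4f1 changed. The block moved the genes called from 16 to 4 (E13 to E15), 34 to 16 (E15 to E18) and 0 to 6 (left to right). With the numbers of E13 crossed, 472 and 81 genes were called from E11 to E13 and E13 to E15. Over the 6 steps and left to right, the genes called were 253, 16, 34, 3421, 1, 625 and 0; DESeq2 called 932, 445, 665, 4086, 22, 1411 and 1; without the filter 1715, 1249, 1461, 4820, 136, 1766 and 37 were called.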
